A study of Mus musculus with 10 samples.

Results

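Spots for 7 families of glycolytic enzymes were examined in the PVN, the paraventricular nucleus of the mouse hypothalamus. The families were hexokinases, aldolases, triosephosphate isomerase, phosphoglycerate kinases, enolases, pyruvate kinases and lactate dehydrogenases. A spot was taken when its deposited name began with one of these enzyme names, whatever its measured value. The families themselves were chosen with earlier results of these data known. The rule found 24 spots of 14 genes, among 22818 spots that were not controls. Aldoc, Ldha and Hk2 were the genes of first interest.

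The separated group held pups of litters kept from their mothers for 24 h, and the non-separated group held pups of litters left with theirs, with litters assigned at random. The sources used here give no strain, age or sex. Each group had 6 animals, whose punched nuclei were joined by pairs into 3 samples. Amplified RNA of the 3 samples was then joined in equal amounts, so each group was hybridised as 1 pool. The pools met on 10 arrays. On 5 arrays the red dye Cy5 marked the separated pool (called here the Cy5 orientation), and on 5 the green dye Cy3 marked it (the Cy3 orientation). These arrays are technical repeats. They measure array error between 2 pools and carry nothing on the spread between animals or litters, so no p-value for separation was computed.

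Glycolysis breaks glucose down to pyruvate in the cytosol and gains ATP, and lactate dehydrogenase turns pyruvate into lactate and back. Most steps are shared among isozymes, that is, products of different genes that carry out one reaction in different tissues or cell types. In brain, aldolase C (Aldoc) is found mainly in astrocytes and in some Purkinje cells, and gamma enolase (Eno2) mainly in neurons. Astrocytes are known for active glycolysis and for release of lactate.

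Each value below is a log2 ratio of the separated over the non-separated pool after normalization. It is the mean of the 2 dye orientations, and its SD is over 10 arrays. A negative value means less signal in the separated pool. The dye of each pool was taken from the labels. If the array titles instead named the pool in Cy5, all directions given here would turn round. The 2 orientations were scanned on different days, so a day effect cannot be told apart from an effect of dye orientation, and a dye effect that differed between the days cannot be told apart from a difference between the pools. In tissue punches, fewer cells of a type and less RNA per cell cannot be told apart.

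A spot was counted as above empty spots when its intensity exceeded the 95th percentile of the empty spots of the same array, in either channel, on at least 8 of 10 arrays. Of all spots that were not controls, 2552 met this. Median spot intensity over all spots lay between 286 and 529 in Cy5 and between 436 and 1011 in Cy3. On 9 arrays the median log2 ratio of Cy5 over Cy3 before normalization lay between -1.31 and -0.63. The remaining array, replicate 3 of the Cy3 orientation, stood apart at 0.32. Of the neuropeptides that mark the PVN, vasopressin (Avp), oxytocin (Oxt) and thyrotropin-releasing hormone (Trh) had 1 spot each, none of them above empty spots. Corticotropin-releasing hormone (Crh) and Sim1 were matched to no spot. The labelled tissue could therefore not be checked on these markers.

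Aldoc carried the only differences among the glycolytic spots that met the call used here. The call asked for a spot above empty spots, a difference of at least 1.5-fold (0.58 on the log2 scale) and the same sign on all 10 arrays. Of the 8 glycolytic spots above empty spots, 2 were called lower in the separated pool and 0 higher. Both were Aldoc spots. Of all spots above empty spots, 0.47% were called lower and 0.157% higher. Taken over all 24 glycolytic spots, with no demand on brightness, the count was again 2 lower and 0 higher. The shares among all non-control spots were then 0.18% lower and 0.0745% higher. Members called came from 1 gene, so the count of 2 stands for 1 gene only.

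**Figure D1:**
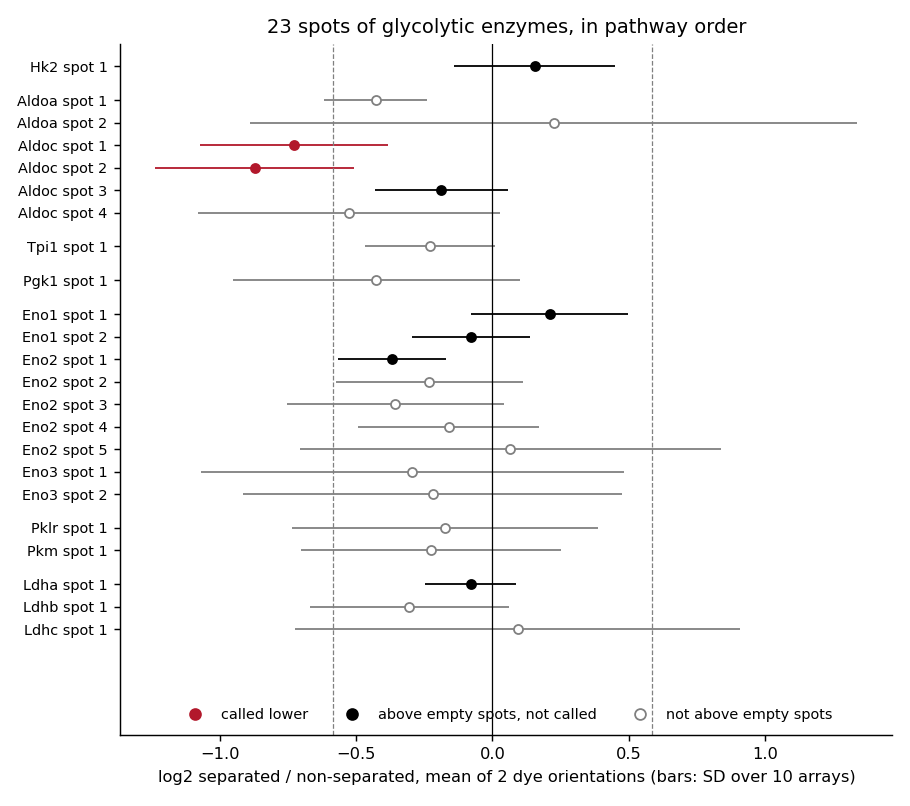
Log2 ratio of the separated over the non-separated pool for 23 glycolytic spots, in the order of the pathway, with bars for the SD over 10 arrays and dashed lines at 1.5-fold. The 2 red points are Aldoc spots 1 and 2, at -0.73 and -0.87. Most open points, which are spots not above empty spots, have bars that cross 0.

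Aldoc encodes the brain isoform of the aldolase that splits fructose 1,6-bisphosphate into 2 three-carbon sugars. It had 4 spots, numbered here from brightest to dimmest. Normalized intensity of spot 1 had a median of 8275 in the separated pool (3446 to 12991 over 10 arrays), against 12773 in the non-separated pool (4903 to 24347). The separated pool was the dimmer one on 10 of 10 arrays. In the Cy5 orientation the log2 ratios of spot 1 were -1.20, -0.76, -0.83, -1.28 and -0.93. In the Cy3 orientation they were -0.18, -0.45, -0.51, -0.48 and -0.65. All 10 values lay below 0, and every Cy5 value lay below every Cy3 value. The mean was -0.73 ± 0.35 (SD, 10 arrays), which is 1.66-fold lower in the separated pool. The mean was -1.001 in the Cy5 orientation and -0.46 in the Cy3 orientation, so the size of the difference varied with the orientation and its sign did not. On the Cy3 arrays alone, spot 1 fell short of 1.5-fold.

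Aldoc spot 2 gave a similar picture. Its normalized intensity had a median of 4329 in the separated pool and 6699 in the non-separated pool. Its log2 ratios in the Cy5 orientation were -0.78, -1.12, -1.20, -1.08 and -1.49. Those in the Cy3 orientation were -0.48, -0.67, -0.53, -1.01 and -0.36. Again no array lay above 0, and the orientations overlapped only through the Cy3 value of -1.01 and the Cy5 value of -0.78. The mean was -0.87 ± 0.36 (SD, 10 arrays), or 1.83-fold lower in the separated pool. It was -1.13 in the Cy5 orientation and -0.61 in the Cy3 orientation, past 1.5-fold in both.

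Aldoc spot 3 did not follow spots 1 and 2 in size. Its log2 ratios were -0.38, -0.20, -0.29, -0.32 and -0.63 in the Cy5 orientation, and 0.17, -0.19, -0.10, 0.18 and -0.12 in the Cy3 orientation. It lay below 0 on all 5 arrays of the first orientation and on both sides of 0 in the second. The mean was -0.19 ± 0.24, and spot 3 lay above spot 1 on 10 of 10 arrays, by 0.54 ± 0.23 (SD, 10 arrays). Spot 4 was above empty spots on 0 of 10 arrays. Its value was -0.53 ± 0.55, with 8 arrays below 0 and 2 above. The deposited name was the same for all 4 spots, and the sequence of each spot was not used here, so whether they read the same part of the transcript was not tested.

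**Figure D2:**
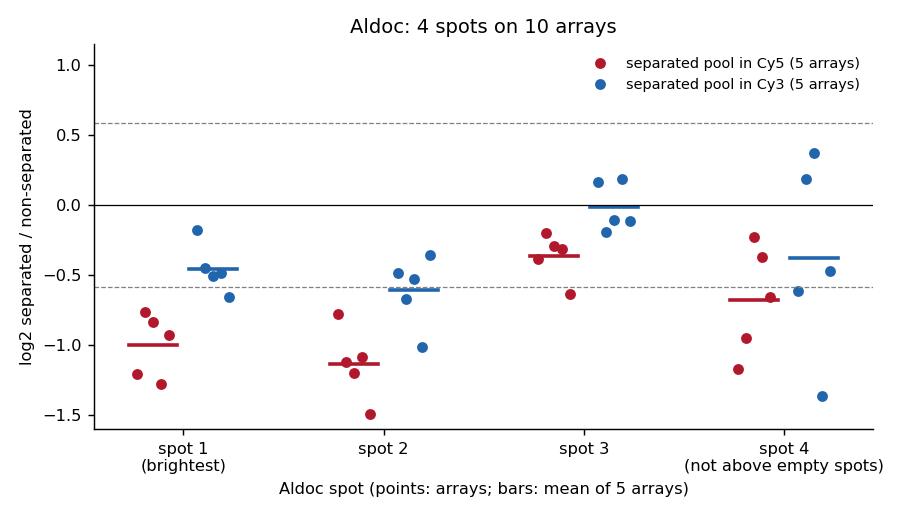
Log2 ratio of the separated over the non-separated pool on each of 10 arrays for the 4 Aldoc spots, with red points for the Cy5 orientation and blue points for the Cy3 orientation. Short bars are means of 5 arrays and dashed lines mark 1.5-fold. Spots 1 and 2 lie below 0 on every array, spot 3 on 8 and spot 4 on 8.

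The authors' deposited table of log2 ratios, made from the same arrays, runs as non-separated over separated under the dye assignment used here. It was turned round to match the ratios computed here, so its sign is no separate evidence of direction. The mean in the authors' deposited table, so turned, was -0.71 for spot 1, -0.77 for spot 2, -0.16 for spot 3 and -0.56 for spot 4. Without the array that stood apart, spot 1 was at -0.72 and spot 2 at -0.88.

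The spots outside the glycolytic families whose 10 values were closest to those of Aldoc spot 1 were found among 2544 spots above empty spots. Closeness was the root mean square difference of the log2 ratios over the 10 arrays. It takes in the mean and the gap between orientations, so close spots are low by construction. A spot for glutamine synthetase (Glul), which makes glutamine from glutamate in astrocytes, was closest at 0.21, with a mean of -0.78 ± 0.26. Another Glul spot followed at 0.24, with -0.86 ± 0.16. Both were called lower. Ndrg2, a gene expressed in astrocytes, came next at 0.27, with -0.58 ± 0.34, then selenoprotein P at 0.29, with -0.51 ± 0.45, and a spot named only as an expressed sequence at 0.30, with -0.59 ± 0.17. The last was called lower, and the spots for Ndrg2 and selenoprotein P were not. By the same measure, Aldoc spots 2, 3 and 4 lay farther from spot 1, at 0.36, 0.58 and 0.59. These 10 arrays share both pools, so the likeness describes array values and not separate biological samples.

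Astrocyte markers were read beside Aldoc. The list held 10 genes with 28 spots, of which 12 spots of 5 genes were above empty spots. The median of these 12 was -0.50, against 0.02 for all spots above empty spots. Over all 28 astrocyte spots the median was -0.33, with 20 below 0 and 8 above. Of the 12, 10 lay below 0 (46.6% of all spots above empty spots did) and 3 were called lower (0.47% of all such spots), all 3 for Glul. The brightest Glul spot lay at 0.18 ± 0.74, with 0.87 in the Cy5 orientation and -0.51 in the Cy3 orientation. Of the gap junction genes of astrocytes, Gja1 lay at -0.51 ± 0.22 in its brightest spot, below 0 on 10 of 10 arrays. Gjb6 lay at -1.22 ± 0.40, also below 0 on 10 of 10, but was above empty spots on only 2 arrays. Gfap, Aqp4, Slc1a2 and S100b did not count as above empty spots either, and each of their spots had arrays on both sides of 0. Gfap lay at -0.20 and 0.13, and Aqp4 at -0.10. Slc1a2 lay at -0.49, 0.23 and 0.14, and S100b at -0.34 and 0.14. Slc1a3, an astrocyte glutamate transporter, lay at -0.02 ± 0.22 and 0.10 ± 0.39 in its 2 spots above empty spots, on both sides of 0. Summed normalized intensity of the list ranged from 65937 to 138423 over arrays in the separated pool and from 98780 to 146878 in the non-separated pool. Such ranges, here and below, do not pair the pools by array, so they give no direction. The brightest Glul spot weighs heavily in this sum, with geometric means of 44786 in the separated pool and 39618 in the non-separated pool. The part of these markers in the Aldoc result was not tested. Of the neuron markers, 7 of 8 genes had spots. Of their spots, 7 were above empty spots and 0 were called, with a median of -0.02. Sums over all neuron spots ranged from 62707 to 125472 in the separated pool and from 59838 to 125828 in the non-separated pool. The brightest Nefm spot weighs heavily in these sums, with geometric means of 43212 in the separated pool and 41977 in the non-separated pool. Myelin markers had 3 spots above empty spots, 0 of them called, with a median of 0.20, against -0.14 over all 24 myelin spots. Among the 3 above empty spots, Mbp lay at -0.43 ± 0.28, below 0 on 10 of 10 arrays. Cnp and Mobp had opposite means in the Cy5 and Cy3 orientations, with 1.06 and -0.57 for Cnp and 0.61 and -0.22 for Mobp. No direction can be given for these 2 spots. Red blood cell markers had 3 spots above empty spots, all of the beta globin gene Hbb-b1, 0 of them called. Their median was 0.34, against 0.13 over all 6 red blood cell spots. The 3 Hbb-b1 spots lay at 0.45 ± 0.16, 0.34 ± 0.33 and 0.20 ± 0.26, above 0 on 10, 8 and 7 arrays. Hba-a1, Alas2 and Slc4a1, not above empty spots, lay at -0.05 ± 0.49, -0.20 ± 0.55 and 0.06 ± 0.37. The part of these markers in the Aldoc result was not tested either.

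Aldoa encodes the aldolase that muscle and most tissues use. Its brighter spot was above empty spots on only 7 of 10 arrays and so did not count as above them. Its log2 ratios were -0.51, -0.50, -0.33, -0.15 and -0.23 in the Cy5 orientation, and -0.32, -0.46, -0.40, -0.82 and -0.57 in the Cy3 orientation. All 10 lay below 0, with the orientations overlapping, and the mean was -0.43 ± 0.19, which is short of 1.5-fold. The second Aldoa spot was above empty spots on 0 arrays and scattered on both sides of 0, at 0.22 ± 1.11.

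Hk2, hexokinase 2, phosphorylates glucose and so starts its use in the cell. Its spot was above empty spots on 8 of 10 arrays. The log2 ratios were 0.31, 0.39, 0.47, 0.42 and 0.34 in the Cy5 orientation, and -0.24, -0.07, -0.32, 0.30 and -0.05 in the Cy3 orientation. All 5 arrays of the first orientation lay above 0, against 1 of 5 in the second, and the orientations did not overlap. The mean over both was 0.15 ± 0.29, and the median normalized intensity was 2820 in the separated pool and 2771 in the non-separated pool. No direction between the pools can be given for Hk2, since its sign was not the same in the 2 orientations. Among spots above empty spots, 16.3% had opposite signs on every array of the 2 orientations, and 3.35% did among all non-control spots. Of the 24 glycolytic spots, 0 did. A limma term for dye, fitted across all spots above empty spots, passed an adjusted p of 0.05 for 61.7% of them. Of the 8 glycolytic ones 4 passed, namely Hk2 and Aldoc spots 1 to 3.

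Ldha encodes the subunit of lactate dehydrogenase that prevails in tissues making lactate. Its spot was above empty spots on 10 of 10 arrays. Its log2 ratios were 0.20, -0.19, -0.10, 0.09 and -0.26 in the Cy5 orientation, and 0.16, -0.23, -0.18, -0.19 and -0.09 in the Cy3 orientation. Signs were mixed in both orientations. The mean was -0.08 ± 0.17, smaller than the spread over arrays, with a median normalized intensity of 5650 in the separated pool and 5859 in the non-separated pool. Neither Ldhb, the heart-type subunit, at -0.30 ± 0.37, nor Ldhc, the sperm form, at 0.09 ± 0.82, counted as above empty spots.

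**Figure D3:**
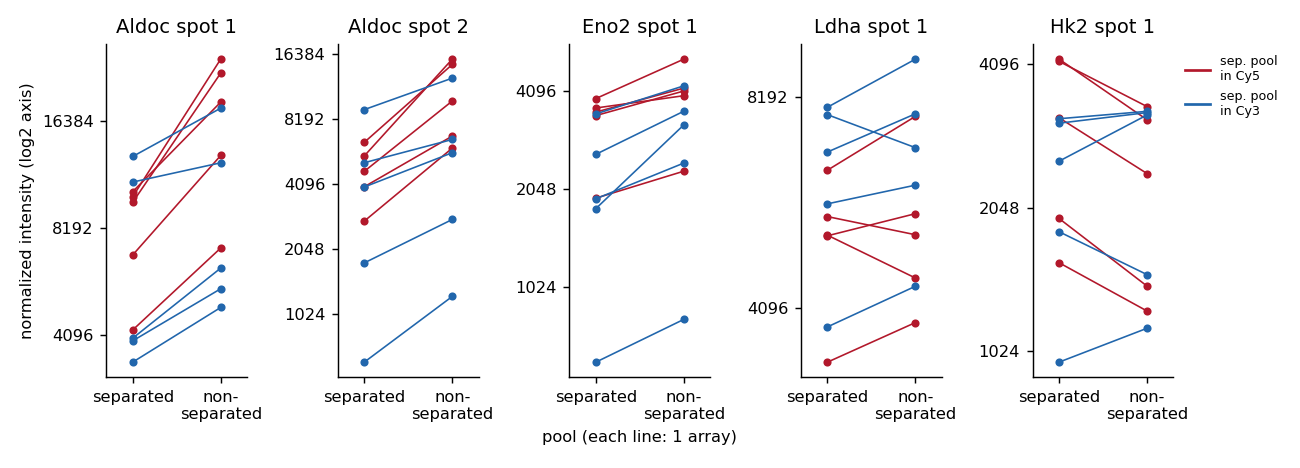
Normalized intensity on a log2 axis in the separated pool (left) and the non-separated pool (right) of each panel, for 5 glycolytic spots, with 1 line per array coloured by the dye of the separated pool. Each panel has its own scale. All 10 lines run upward to the right for both Aldoc spots and for Eno2 spot 1. For Hk2 the 5 red lines run downward and 4 of the 5 blue lines upward.

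The enolases make phosphoenolpyruvate, and 1 of their 9 spots, Eno2 spot 1, had the same sign on all arrays. It was above empty spots on 8 of 10 arrays. Its log2 ratios were -0.25, -0.13, -0.40, -0.28 and -0.25 in the Cy5 orientation, and -0.29, -0.86, -0.44, -0.44 and -0.37 in the Cy3 orientation. All 10 lay below 0, with the value of -0.86 lowest. The mean was -0.37 ± 0.20, or 1.29-fold lower in the separated pool, which does not reach the call. Median normalized intensity was 3037 in the separated pool and 3768 in the non-separated pool. The other 4 Eno2 spots did not count as above empty spots and lay between -0.36 and 0.07, each with arrays on both sides of 0.

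Eno1, the enolase of most tissues, had 2 spots above empty spots that differed in sign. Spot 1 gave 0.04, 0.26, -0.17, -0.08 and 0.17 in the Cy5 orientation, and 0.27, 0.67, 0.66, -0.03 and 0.30 in the Cy3 orientation. Spot 2 gave -0.24, -0.24, 0.08, -0.44 and -0.25 in the first orientation, and 0.21, 0.17, -0.17, 0.01 and 0.08 in the second. Their means were 0.21 ± 0.29 and -0.08 ± 0.22, so no direction can be given for Eno1. Eno3, the muscle enolase, had 2 spots above empty spots on 0 arrays, at -0.29 ± 0.78 and -0.22 ± 0.69.

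The spots of the remaining families did not count as above empty spots. Pgk1, which forms ATP from 1,3-bisphosphoglycerate, was above empty spots on 6 of 10 arrays. Its value was -0.43 ± 0.53, below 0 on 9 arrays, with -0.74 in the Cy5 orientation and -0.11 in the Cy3 orientation. Tpi1, which interconverts the 2 three-carbon sugars, was above empty spots on 7 arrays and lay at -0.23 ± 0.24, below 0 on 8. For the pyruvate kinases, which make pyruvate and ATP, Pkm lay at -0.23 ± 0.48 and Pklr, the liver and red blood cell form, at -0.17 ± 0.56. Both scattered on either side of 0, and Pklr was above empty spots on 0 arrays and Pkm on 1.

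**Figure D4:**
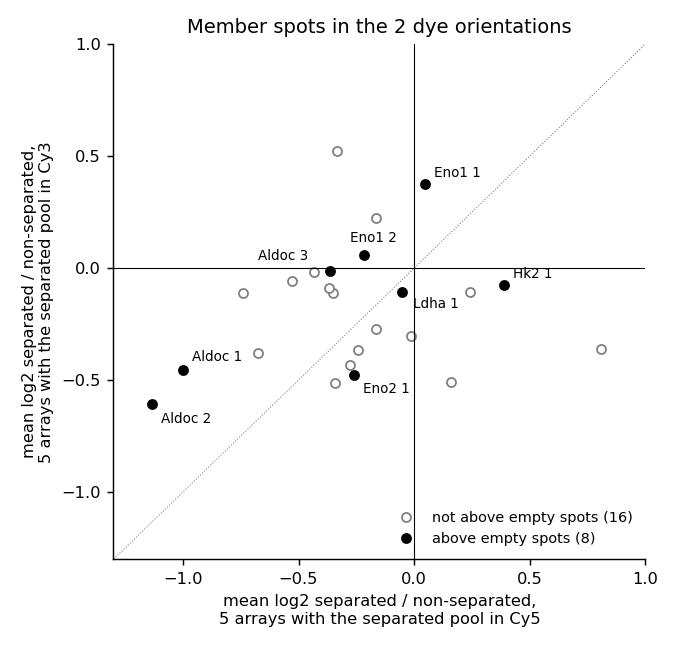
Mean log2 ratio of the separated over the non-separated pool in the Cy5 orientation (horizontal) and in the Cy3 orientation (vertical) for the 24 glycolytic spots, with a dotted line where both are equal. The 8 spots above empty spots are named. Aldoc spots 1 and 2 and Eno2 spot 1 lie well below 0 in both orientations, while Hk2 lies at 0.39 and -0.08.

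Over all glycolytic spots, the mean lay below 0 for 18 of 24 (49.8% of all non-control spots) and for 6 of the 8 above empty spots (46.6% of all such spots). Their median was -0.22 over the 24 and -0.13 over the 8, against 0.00 and 0.02 for all spots. Without Aldoc the medians were -0.20 over 20 spots and -0.08 over 5. On single arrays, the median of the 8 spots lay between -0.30 and -0.01 and was below 0 on 10 of 10. Without the Aldoc spots it was below 0 on 8 of 10, between -0.25 and 0.16. The median of all spots above empty spots was itself below 0 on 9 of 10 arrays, though closer to 0, between -0.06 and 0.00, so these array counts say little of the glycolytic spots. At any size of difference, 3 of the 8 spots lay below 0 on all 10 arrays, namely Aldoc spots 1 and 2 and Eno2 spot 1, against 4.27% of all spots above empty spots. With the first Aldoa spot, 4 of the 24 did so, against 0.92% of all non-control spots. Of the 8 and of the 24 glycolytic spots, 0 lay above 0 on all 10 arrays, against 1.53% of spots above empty spots and 0.403% of all non-control spots. Spots of 1 gene share a transcript, and all 24 share the same 2 pools, so these counts describe the pools.

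Other genes of glucose, glycogen, pyruvate and lactate handling were taken from a list of 41 genes. Of these, 35 genes had 51 spots, of which 7 were above empty spots and 0 were called in either direction. The median was -0.08 over the 51 spots and 0.03 over the 7. Only 1 spot had one sign on all 10 arrays, for Pgam1, the mutase that feeds enolase. It lay at -0.41 ± 0.27 and was above empty spots on 0 arrays. The 7 spots above empty spots are named here after their values were seen. Gapdh, the dehydrogenase between the aldolase and kinase steps, lay at -0.35 ± 0.39, below 0 on 8 arrays, with -0.69 in the Cy5 orientation and -0.02 in the Cy3 orientation. Gpd1, which passes electrons from NADH to the glycerol phosphate shuttle, lay at -0.37 ± 0.27, below 0 on 9, with -0.43 and -0.31 in the Cy5 and Cy3 orientations. The others stayed closer to 0. Bpgm, the 2,3-bisphosphoglycerate mutase, was at -0.09 ± 0.18. Of the glycogen phosphorylases, the brain form Pygb was at 0.13 ± 0.31, with 0.35 in the Cy5 orientation and -0.09 in the Cy3 orientation. A second Pygb spot, above empty spots on only 6 arrays, was at -0.46 ± 0.34, below 0 on 8, so no direction can be given for Pygb. The muscle form Pygm was at 0.16 ± 0.18. Pdha1, a subunit of pyruvate dehydrogenase, was at 0.03 ± 0.41, and the kinase Pdk3, which inhibits that enzyme, at 0.07 ± 0.45. Both had opposite means in the 2 orientations, with -0.33 and 0.39 for Pdha1 and -0.35 and 0.49 for Pdk3. Among spots of this list for glycolysis steps, also read after their values were seen, Gapdh and Pgam1 spots lay between -0.41 and -0.09. Glucose phosphate isomerase (Gpi1) lay at -0.31. Phosphofructokinase spots lay at -0.26 for Pfkl, at -0.33 and -0.28 for Pfkm, and at -0.28, 0.05 and -0.31 for Pfkp. Phosphoglycerate mutase 2 (Pgam2) lay at 0.22. Of these, only 1 Gapdh spot was above empty spots.

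**Figure D5:**
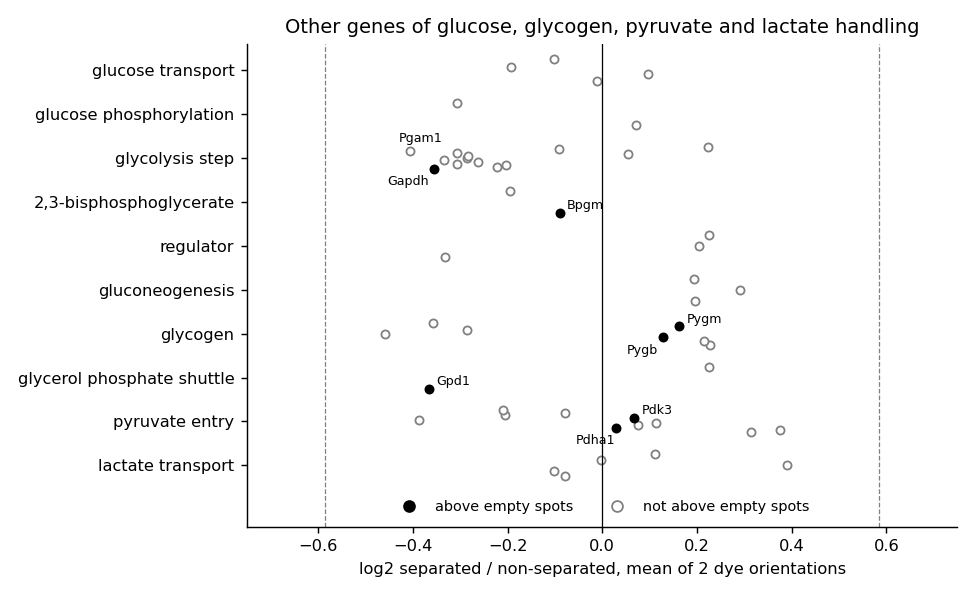
Log2 ratio of the separated over the non-separated pool, as the mean of the 2 dye orientations, for 51 spots of other genes of glucose, glycogen, pyruvate and lactate handling, grouped by role. Filled points are the 7 spots above empty spots, and dashed lines mark 1.5-fold. All 51 spots lie within 1.5-fold, and Pgam1 is named because it had one sign on all 10 arrays.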

How the data were processed

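Two-colour spotted arrays of mouse PVN were analysed, each with 24192 spots in 48 blocks. Per the file headers, deposited spot intensity is on a linear scale with no background subtraction, and local background was deposited beside it, at 0 for 91.5 to 99.9% of spots. The series table of log2 ratios deposited by the authors holds 19025 spots, with no scaling method stated in the labels or headers. Its columns correlated at -0.96 to -0.92 with the separated over non-separated ratios made here, so they were turned.

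Background was corrected by normexp (offset 50) and ratios by loess within each array, with control spots at weight 0 (limma 3.58.1, R 4.3.3). The 1374 control spots, 1170 of them empty, were then left out. Symbols were given by hand from the deposited names. Member genes are named, with spots numbered by brightness, except 1 gene with 1 spot that is counted but not reported here. From the list of other pathway genes, those called or of one sign on all 10 arrays are named. Those above empty spots and those for glycolysis steps were added after their values were seen. Likeness to Aldoc names the nearest 5 spots. Members, lists and thresholds were chosen with earlier results of these data known.

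The number of arrays limits precision, and pools give no biological error. The call was tested on simulated data for this comparison over 2552 spots. It found 83 of 100 spots changed by 0.75 on the log2 scale, 99 of 100 changed by 1.5 and 0 of 2352 unchanged. The simulation gave each spot a constant dye effect and independent array noise. It held no dye effect that differed between scan days and no sampling of animals. The 0 of 2352 therefore says nothing of false calls from these. Alternatives covered background, normalization, detection, the authors' table, dye orientation, single arrays, replicate numbers and limma.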

Additional observations from a re-analysis of the deposited data

Results flagged for a closer look

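Among 50 sets of 5 arrays, made of the 24 glycolytic spots and the median of the 8 above empty spots in each dye orientation, 3 had 1 array far from the other 4. Chance gives about 1 in 20, or 2.5. Eno2 spot 1 was at -0.86 on replicate 2 of the Cy3 orientation, against -0.44 to -0.29 on the other 4. Pgk1 was at 0.61 on replicate 4 of the Cy3 orientation, against -0.46 to -0.22. Tpi1 was at -0.77 on replicate 1 of the Cy5 orientation, against -0.35 to -0.21.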

How the results depend on the processing

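The 2 glycolytic spots called lower, both of Aldoc, and the 0 called higher were the counts under every alternative run but 1. In the Cy3 orientation alone, 1 spot was called lower, because Aldoc spot 1 was at -0.46 there. Leaving out each array in turn gave 2 lower and 0 higher each time, 14 to 18 called spots over the whole array (16 with all arrays) and a glycolytic median of -0.16 to -0.11. Whole-array calls were 12 lower and 4 higher. They came to 58 with no detection filter (41 lower, 17 higher), 424 on the Cy5 arrays alone (111 lower, 313 higher) and 89 on the Cy3 arrays alone (31 lower, 58 higher). With median centring and no loess they split into 20 lower and 2 higher. The median of the glycolytic spots above empty spots, -0.13, moved to -0.22 with median centring, to -0.22 with no detection filter and to -0.24 on the Cy5 arrays alone. With limma, for array error only, 2 glycolytic spots were lower and 0 higher, of 20 called in all. With replicate number as a block, 2 were lower and 0 higher, of 19 called in all, and the median was -0.13. Arrays of the same number correlated at -0.09 to 0.06, so the numbers do not pair them. Of 259 recomputed values of 15 genes, 251 kept their sign. Among the genes named here, Hk2 changed sign in the Cy3 orientation alone, at -0.08, and Pklr in the Cy5 orientation alone, at 0.16. Ldhc changed sign in 2 settings, at -0.33 in the Cy5 orientation alone and at -0.05 without replicate 1 of that orientation. Aldoc spot 1 ranged from -1.001 to -0.46. Of the recomputed values, 0 moved by more than 1 SD over all arrays, but most settings could not have given such a move. That SD contains the gap between orientations, so it always exceeds the shift seen in either orientation alone. Leaving out 1 array cannot shift a mean that far, and the replicate block leaves it unchanged. The 0 therefore says nothing of stability under these settings. Signal over background limits the rest: 16 of 24 glycolytic spots were not above empty spots.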
